A study of Drosophila melanogaster with 3 samples.

Results

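The 63 genes described here carry only a CG number, the provisional identifier that the fly genome project gave to a gene model before anyone named it, and they read steadily higher in sva53 mutant ovaries than in sva53/+ ovaries of Drosophila melanogaster. They were chosen by their measured values. A gene had to have a CG number as its only symbol in the array's annotation, a mean log2 ratio of mutant over control of at least 0.6 over 3 arrays, and a range over the arrays under 0.8. These thresholds kept 63 of the 4635 CG-numbered genes measured and of 10805 genes in all. One gene that the rule leaves out by name did not meet them. With the mean and the range taken over arrays 1 and 2 alone 113 genes met the thresholds, 90 without array 2 and 60 without array 1. A range over fewer arrays is never wider, so its threshold is then easier to meet. Of the 63, those chosen again were 60 without array 3, 57 without array 2 and 44 without array 1.

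The mutant RNA came from ovaries whose germ line descended from pole cells, the germ cell precursors, of embryos laid by germline clones homozygous for sva53[M1]. The control RNA came from ovaries whose germ line descended from sva53/+ pole cells. Both kinds of pole cell were moved into hosts from osk-homozygous mothers, whose offspring form no germ cells of their own, so the somatic cells of every ovary were host cells. All flies were females of about 7 days. There were 3 mutant pools of 2 ovary pairs, from separate experiments (n = 3). One control RNA from 3 pairs of ovaries served on all 3 arrays, so the spread between arrays leaves out that of the control. Mutant RNA was always in Cy3 and control RNA always in Cy5, so a dye bias of a probe does not cancel. The deposited ratio was read as Cy5 over Cy3 and turned round. This direction is likely, not stated, and with the other numerator all 63 genes would read lower in the mutant.

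The sva53 allele is recalled as one of mamo, a maternal gene for a zinc-finger protein with a BTB domain that germ cells need to make functional gametes. In the fly ovary, germ cells divide into cysts in which one cell becomes the oocyte and its sisters become nurse cells. Follicle cells of somatic origin wrap the cyst and later make the eggshell. A CG number says nothing of function, and most of the 63 genes have no role that can be given here. Whole ovaries were measured, so more cells of a type and more RNA per cell cannot be told apart for any value below. The files hold ratios without intensities, so neither the level of a gene nor the identity of the tissue can be checked.

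All 63 genes were above 0 on every array, which the thresholds alone require. Array 1 had the highest median of the 63, at 0.89, with 0.73 on array 2 and 0.67 on array 3. The median mean was 0.75, against -0.003 over all 15415 features fitted. Among all genes on an array, 60 of the 63 lay in the top 5% on array 1, 61 on array 2 and 57 on array 3. These counts too are largely set by the choice of genes on the same values. On all 3 arrays at once, 27 genes stood at 0.6 or more. The lowest single value was that of CG15279 on array 3 (0.18).

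Across the whole table limma called 1021 of 15415 features higher at a Benjamini-Hochberg adjusted p under 0.05, a background of 6.62%. Among all CG-numbered genes the share was 5.03%. Of the 63, 58 were called, a count that the choice of genes by this same contrast sets. A fit to only 2 of the arrays called 0 features whichever array was dropped, and so 0 of the 63. Of the 63, 62 then had an unadjusted p under 0.05 in each case, a count that the choice of genes also largely sets. Among all features, 4710 without array 1, 3277 without array 2 and 4304 without array 3 had such a p in limma. At an adjusted p under 0.01 limma also called 0 features, while 5588 features had an unadjusted p under 0.05 with all arrays. The genes not called were CG32086, CG32437, CG7653, CG15279 and CG18814.

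**Figure D1:**
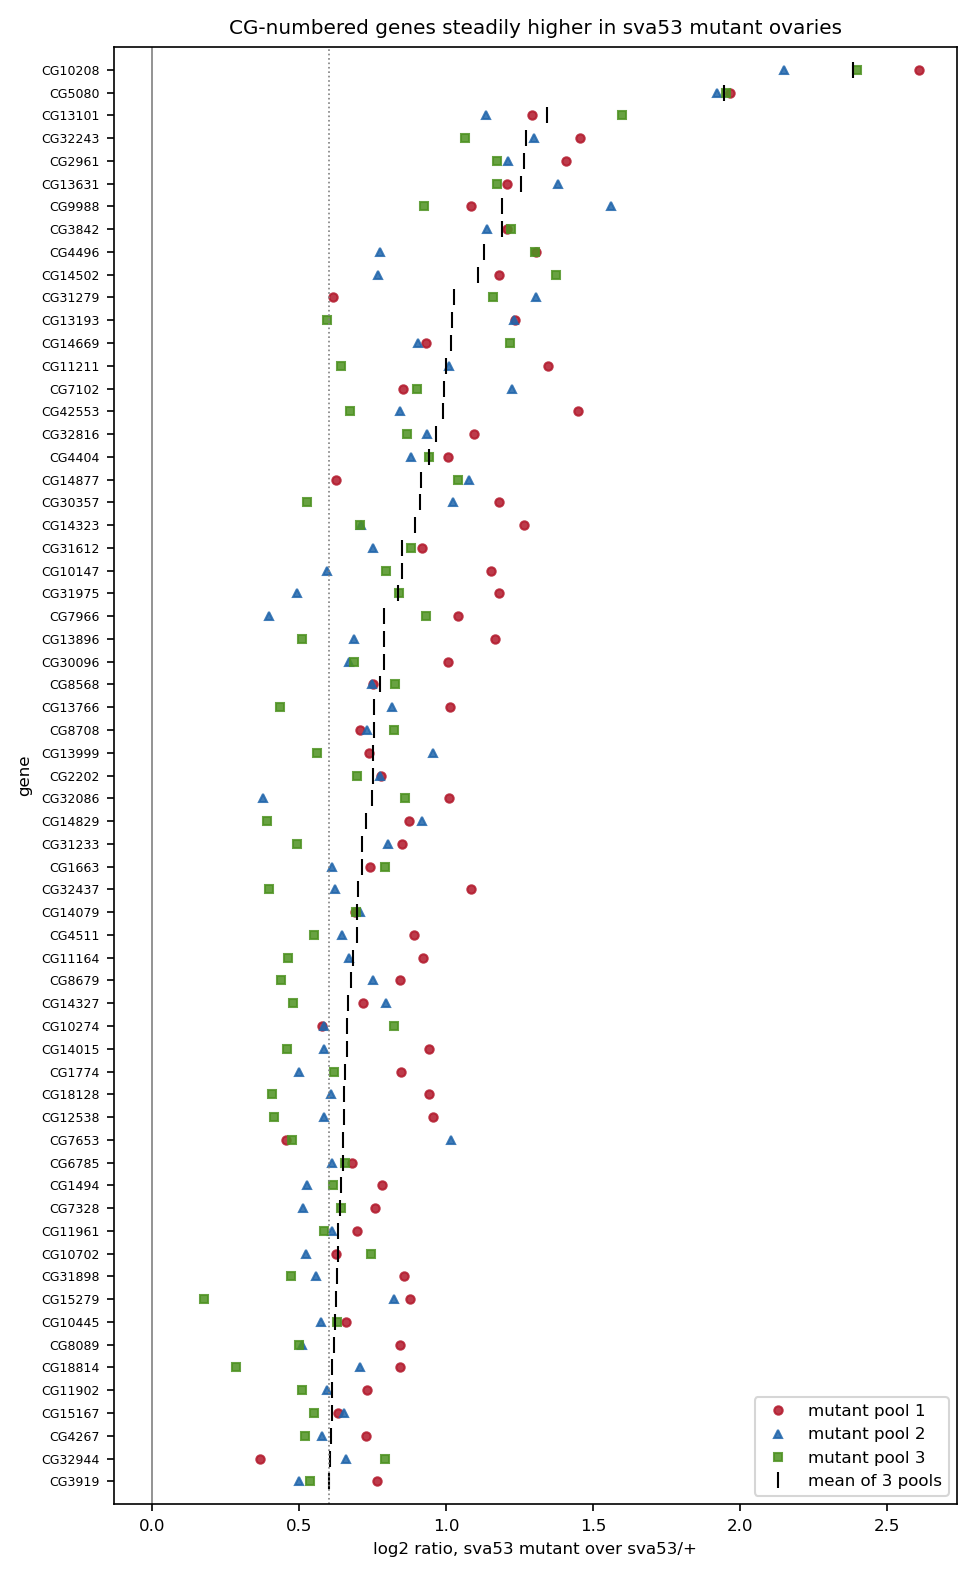
Log2 ratio of sva53 mutant over sva53/+ (horizontal axis) for each of the 63 genes (rows, highest mean at the top), with 1 symbol for each mutant pool and a bar for the mean; the dotted line marks 0.6. CG10208 and CG5080 stand apart at the top, and 50 of the 63 means lie under 1.

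A first group of 13 genes averaged 1 or more on the log2 scale, a doubling or above. The highest was CG10208, which read 2.61, 2.15 and 2.40 on arrays 1, 2 and 3. All its values exceeded those of any other of the 63 genes on the same array, and the mean of 2.38 ± 0.23 (SD, n = 3) is a 5.22-fold ratio. Its 2 features read 2.21 and 2.56, so both lay above 2.

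CG5080 came next, at 1.97, 1.92 and 1.95 (1.95 ± 0.02, 3.85-fold). It was the gene with the largest ratio among those of least spread. Its 2 features kept their own levels on every array, one between 1.45 and 1.49 and the other between 2.35 and 2.45, so they differed from each other far more than either differed between pools.

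CG13101 read 1.29, 1.14 and 1.60, and its features averaged 1.17 and 1.52. CG32243, for which the RefSeq table lists an embryonic cDNA clone, read 1.45, 1.30 and 1.06 on a single feature. From CG32243 down to CG14669 the gaps between neighbours in the order were smaller than the SD of at least one of the pair, so neighbours among these 10 genes did not differ beyond their spread.

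CG2961 is listed by RefSeq under the synonym Ipod, a name given to a protein found as an interaction partner of the RNA methyltransferase Dnmt2. It read 1.41, 1.21 and 1.17, and its 2 features agreed closely, at 1.23 and 1.29. The mean was 1.26 ± 0.12 (SD, n = 3; 2.4-fold). CG13631, with a cDNA clone from adult head, read 1.21, 1.38 and 1.17 on its only feature.

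CG3842 combined a mean over 1 with a narrow spread, at 1.21, 1.14 and 1.22 (1.19 ± 0.04). CG9988 had nearly the same mean of 1.19 but spread from 0.92 on array 3 to 1.56 on array 2. CG4496 read 1.31 on array 1, 0.77 on array 2 and 1.30 on array 3, and both its features (0.95 and 1.30) were lowest on array 2. The low value on array 2 is therefore not that of a single spot.

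CG14502 was likewise lowest on array 2 (0.77, against 1.18 on array 1 and 1.37 on array 3). CG31279 was lowest on array 1 (0.62, against 1.30 and 1.16 on arrays 2 and 3). CG13193 stood at 1.24 and 1.23 on arrays 1 and 2 and at 0.60 on array 3. These 3 genes have a single feature each, so a spot and a pool cannot be told apart. CG14669 read 0.93, 0.90 and 1.22.

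Of the 63 genes 13 ranged over less than 0.2 between pools. The narrowest was CG14079, at 0.691, 0.705 and 0.693, a range of 0.014 on a single feature. CG6785 followed CG5080 in narrowness, at 0.68, 0.61 and 0.65, and then CG8568 and CG3842. In the median gene of the set the range was 0.39, and 13 genes ranged over 0.6 or more.

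Some of the genes have an alternative name in the RefSeq table that gives a hint of the protein. CG14877 is also listed as Gyc89A, a name for a guanylyl cyclase, an enzyme that makes the second messenger cyclic GMP. It read 0.63, 1.08 and 1.04, lowest on array 1. CG13766 is also listed as FBXO16, a name of F-box proteins, which bring substrates to ubiquitin ligases. It read 1.01, 0.82 and 0.43, lowest on array 3.

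CG8679 carries the synonym dLEM3. Many proteins with a LEM domain sit at the inner nuclear membrane and bind the chromatin protein BAF. Whether the product of CG8679 does so was not tested. The gene read 0.84, 0.75 and 0.44. CG15279, also DmNAT6, a name for a transporter that takes up amino acids with sodium, read 0.88, 0.82 and 0.18. Its range of 0.70 was among the widest of the 63, and array 3 held the low value.

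CG8708 is also listed as dC1GalT2, a name for a galactosyltransferase that extends O-linked sugars on mucin-type proteins. The gene values were even, at 0.71, 0.73 and 0.82, but they averaged 2 features that disagreed. One feature read 1.24, 1.60 and 1.64, and the other 0.18, -0.14 and 0.01. The higher one lies in grid column 2, next to the edge of the array. So do the only features of CG14877 and CG30357 and the lower one of CG11902. Some features lie near one corner, in rows 99 to 104 and columns 2 to 25. They belong to CG18128, CG31233, CG14323, CG9988, CG32437, CG13193, CG1494, CG30357 and CG14015. With grid trends removed, a step added after seeing the data, each of these corner genes averaged less. CG18128 (0.59), CG14015 (0.58) and CG1494 (0.58) then fell under 0.6. So did CG18814 (0.52), CG4267 (0.57) and CG10702 (0.59), whose features lie outside that corner. Of the other genes outside it, some averaged less and some more. The part of position in single feature values was not tested.

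Of the 63 genes 45 rest on 1 feature, 17 on 2 and CG4511 on 3. Where a gene had several features, the rule used their mean, so it could be met by one feature alone. In 10 of these 18 genes every feature averaged 0.6 or more, and in the other 8 at least one lay below. Those with every feature at 0.6 or more were CG10208, CG5080, CG13101, CG2961, CG4496, CG7102, CG4404, CG2202, CG1774 and CG7328. The features of CG7328 were nearly equal, at 0.637 and 0.640, and those of CG1774 read 0.65 and 0.66. CG4404 read 1.01, 0.88 and 0.94, from features at 0.83 and 1.05, and CG2202 read 0.78, 0.78 and 0.70, from features at 0.65 and 0.85.

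Features differed by over 1 log2 unit in 4 genes, CG8568, CG8708, CG14015 and CG11902. CG8568 had the widest gap. One of its features read 1.65, 1.62 and 1.74 on the 3 arrays, a ratio of its own near that of CG5080. The other read -0.15, -0.12 and -0.09. Taking the feature of smallest SD turned the mean of CG8568 to -0.12, the only change of sign among the 63 genes under the alternatives tried.

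The features of CG14015 averaged 0.13 and 1.20, and those of CG11902 averaged 0.08 and 1.15. In both genes the higher feature was above the lower one on each array. CG31612 (0.39 and 1.31), CG10274 (0.29 and 1.04) and CG4511 (0.37, 0.46 and 1.25) split in the same way. CG31612 joins 2 earlier gene models, CG11631 and CG11632, in the RefSeq table, and which model each feature was designed for was not tested. The features of CG3919 lay at 0.56 and 0.64, on either side of the threshold.

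**Figure D2:**
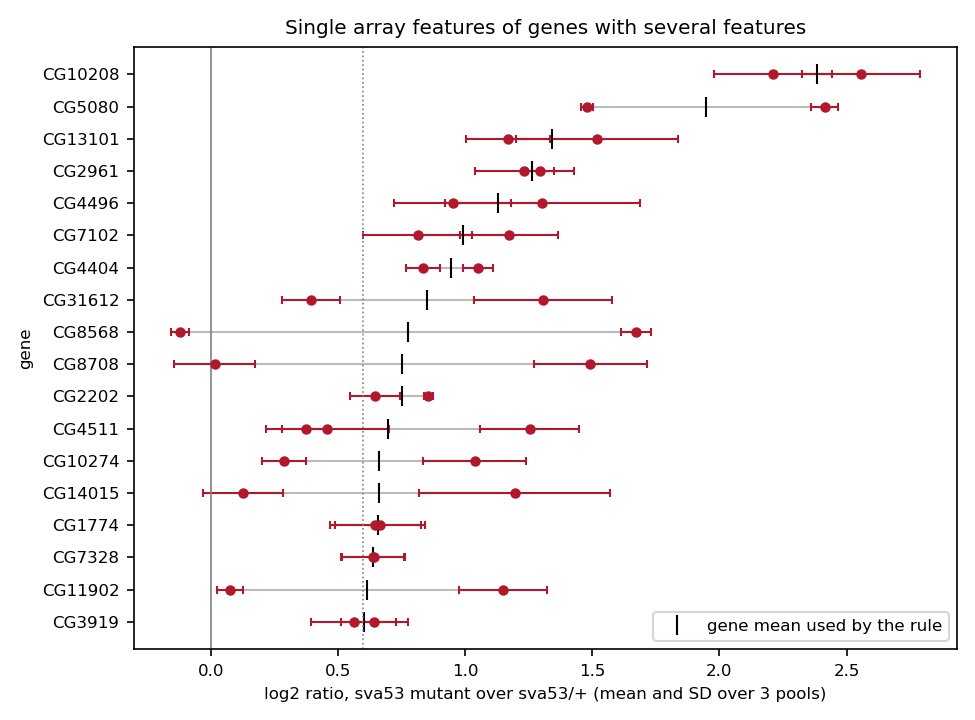
Mean log2 ratio of sva53 mutant over sva53/+ for each array feature (points, with the SD over 3 pools as bars) of the 18 genes that have several features; black bars mark the gene mean and the dotted line 0.6. The features of CG7328 and CG2961 sit close together, while 1 feature of each of CG8568, CG8708, CG14015 and CG11902 lies near 0.

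In all, 24 genes averaged from 0.7 to under 1. Besides those already described these were CG11211, CG42553, CG32816, CG30357, CG14323, CG10147, CG31975, CG7966, CG13896, CG30096, CG13999, CG32086, CG14829, CG31233, CG1663 and CG32437, and CG7102 at 0.85, 1.22 and 0.90. CG30357, for which RefSeq lists a cDNA clone from adult testis, read 1.18, 1.02 and 0.53. CG14323 read 1.26, 0.71 and 0.71, and CG1663 was even, at 0.74, 0.61 and 0.79.

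The remaining 26 genes averaged under 0.7, close above the threshold. The single-feature genes not yet described were CG7653, CG18814, CG11164, CG14327, CG18128, CG12538, CG1494, CG11961, CG10702, CG31898, CG10445, CG8089, CG15167, CG4267 and CG32944. CG11961 (0.70, 0.61 and 0.59) and CG10445 (0.66, 0.58 and 0.63) held nearly one value on all arrays. CG7653 was highest on array 2, at 0.45, 1.01 and 0.48, and CG18814 lowest on array 3, at 0.84, 0.71 and 0.29. CG32944 instead read 0.37, 0.66 and 0.79, the lowest value of any of the 63 on array 1.

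The thresholds cut through a continuous distribution. Just inside the threshold on the mean were CG3919 (0.602), CG32944 (0.606) and CG4267 (0.609), and just outside were CG14292 (0.594), CG32100 (0.589) and CG5888 (0.588). Just inside the threshold on the range were CG42553 (0.78), CG11211 (0.70) and CG15279 (0.70), and just outside were CG4053 (0.81), CG15249 (0.90) and CG4733 (0.95). CG4053 and CG4733 had means of 1.08 and 1.10, inside the span of the 63 means. A threshold of 0.5 on the mean would have kept 126 genes and one of 0.7 would have kept 37.

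**Figure D3:**
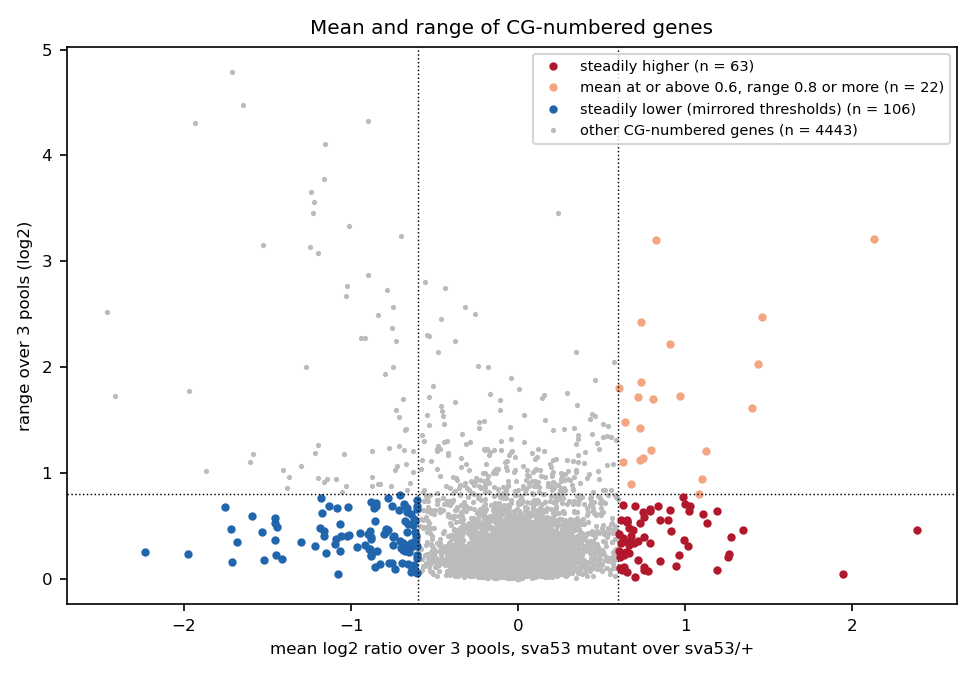
Mean log2 ratio of sva53 mutant over sva53/+ (horizontal axis) against the range over 3 pools (vertical axis) for the CG-numbered genes, with dotted lines at the thresholds. The 63 steadily higher genes fill the lower right corner beside 22 of wider range, and 106 genes meet the mirrored thresholds on the lower left.

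The thresholds turned round, a mean at or below -0.6 and the same range, were met by 106 CG-numbered genes, whose median mean was -0.81 and whose lowest mean was -2.23. Among genes with a symbol of another kind, 86 met the same thresholds as the 63, with a median mean of 0.73 and a highest mean of 2.56. These numbers stand side by side without a test. The 63 had several features in 28.6% of cases, the 106 lower genes in 33.0%, the 86 other genes in 54.7% and all CG-numbered genes in 40.0%. The median gap between features of a gene was 0.36 in the 63, 0.45 in the 106, 0.29 in the 86 and 0.17 in all CG-numbered genes.

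Array 1 held the highest value in 42 of the 63 genes, array 2 in 11 and array 3 in 10. The SD of the ratios of all genes was also widest on array 1, at 0.47, against 0.32 on array 2 and 0.31 on array 3. With the arrays scaled to one median absolute deviation, array 1 was highest in 18 genes, array 2 in 20 and array 3 in 25. The order of the pools in the 63 genes thus depended on the scaling. Over the 63 genes Pearson's r between pairs of arrays lay from 0.65 to 0.69 and Spearman's rho from 0.32 to 0.38. Over all genes Pearson's r lay from 0.55 to 0.63. These values are a description, since the arrays share the control RNA and the rule itself limits the range of the 63 over arrays.

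Gene identifiers of all 63 were found in RefSeq's table (assembly GCF_000001215.4), and 0 had a new symbol there. Its gene order was used to find the protein-coding genes next to them, since genes side by side can share control regions or transcripts. No 2 of the 63 were immediate neighbours. In 2 pairs the genes lay within 5 genes of each other, CG14323 with CG14327 and CG13896 with CG42553.

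Apart from the 63 themselves, 103 immediately adjacent genes were measured. Their median was 0.01, with quartiles at -0.13 and 0.19, and 1.94% averaged 0.6 or more. Over the genes next to any measured gene that share was 1.84%. The difference was not tested.

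Both of the adjacent genes at 0.6 or more are named. Bulli, which encodes a partner of the Mon1 and Ccz1 proteins that activate the late endosome GTPase Rab7, lies beside CG10147. Bulli read 2.80, 2.55 and 2.34 on its single feature, the highest mean of all genes, while CG10147 read 1.15, 0.60 and 0.80. Both were above 0.5 on every array, and the named gene was the higher of the pair each time. Next to CG32086 lies rt, which encodes a protein O-mannosyltransferase. It read 1.09, 0.77 and 0.82, while CG32086 read 1.01, 0.38 and 0.86. In this pair both genes were lowest on array 2.

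CG1494 overlaps in position with Abca3, a gene for a transporter of the ABC family, whose subfamily A members move lipids. CG1494 read 0.78, 0.53 and 0.62, and Abca3 read 0.61, 0.50 and 0.63, with features at 0.44 and 0.71. The values of the pair lay close together on each array. How far the probes of 2 overlapping genes share a target was not tested. At the other end, fest, beside CG11961, averaged -1.25, from features at -2.13 and -0.38.

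Of the 63 genes 20 overlap another protein-coding gene in position. Of 32 such overlapping genes 16 were measured, 8 of them above 0, and 0 reached 0.6. No such share was computed for genes that overlap other measured genes. Over the genes immediately next to any measured gene, which is a different set, 49.2% were above 0 and 1.84% reached 0.6. CG13193 lies within ths, a gene for an FGF ligand, which averaged 0.07 while CG13193 averaged 1.02. CG14502 lies within sbb, which averaged 0.04 while CG14502 averaged 1.11. CG30357 lies within CG14767 (-0.13) and CG31975 within ND-15 (-0.24), which encodes a subunit of respiratory complex I. CG18128 lies within Sesn (0.46), which encodes a stress-induced regulator of the TOR pathway, and CG8679 within Atg18b (0.29), a homologue of an autophagy gene. Of these 6 surrounding genes 4 were above 0 and 2 below. All were lower than the gene they hold, which the choice of the 63 at 0.6 or more makes likely but does not require.

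**Figure D4:**
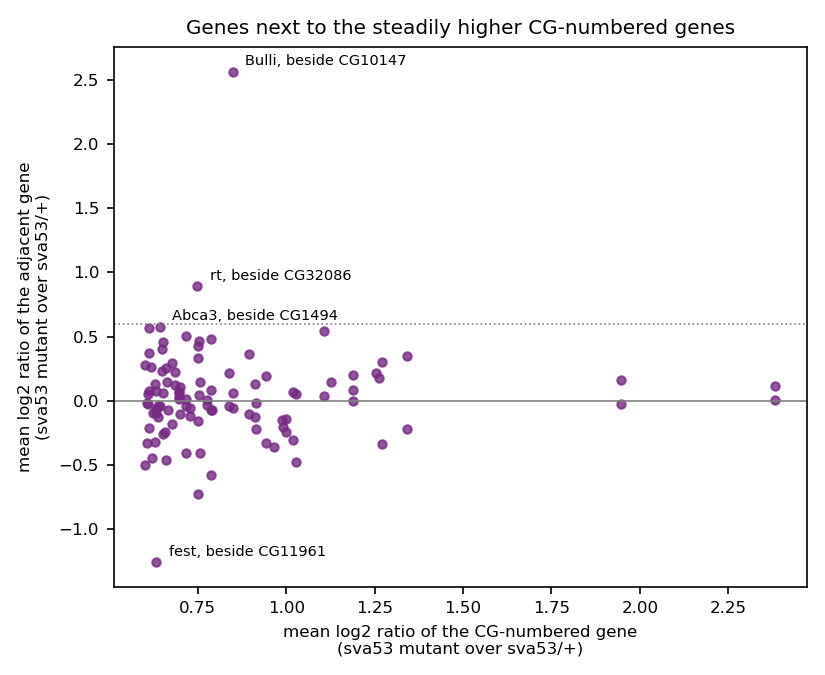
Mean log2 ratio of sva53 mutant over sva53/+ of each measured gene next to one of the 63 (vertical axis) against the mean of that gene (horizontal axis); 1 point is 1 adjacent pair, and the dotted line marks 0.6. Most adjacent genes lie near 0, and Bulli and rt are the points above the line.

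Marker genes of some cell types read differently between the pools, those of eggshell and yolk among them. Other lists differed less. On arrays 1, 2 and 3 the medians were -0.29, -0.44 and -0.30 for testis and -0.16, -0.22 and -0.22 for midgut. For the germ line they were -0.15, -0.04 and -0.01. Eggshell genes, made by follicle cells of late egg chambers, had a median over 7 measured genes of -2.87 on array 1, against -0.05 and -0.01 on arrays 2 and 3, with 0 called. Single eggshell genes still spread on array 3, from -1.33 for Fcp3C to 0.81 for Cp38. The 3 yolk protein genes had a median of -1.49, -0.24 and 0.13. On array 1, where these were lowest, the 63 genes had their highest median, 0.89. After scaling of the arrays that median was 0.751 on array 1, against 0.771 and 0.755 on arrays 2 and 3, so array 1 was then no longer the highest. The part of cell composition in the 63 values was not tested. The 10 germ line genes measured had a median of -0.10 over the arrays, with 0 called higher and 1 lower. Among all features limma called 1114 of 15415 lower, a background of 7.23%. Over the arrays the median was -0.31 for 15 testis genes (7 lower), -0.34 for 7 fat body genes (3 lower), 0.19 for 11 muscle genes (0 called) and -0.17 for 17 midgut genes (1 higher and 5 lower). Among the fat body genes Lsd-1 (-1.71), Pepck1 (-1.80) and Obp99b (-1.52) were called lower, while Lsp2 (0.39) and Fbp2 (0.50) averaged above 0. Fbp1 (-0.03) and apolpp (-0.34) lay between. The list of 11 hemocyte and basement membrane genes also split. Its 5 basement membrane genes averaged from -1.17 to -0.71 and were all called lower, while its 6 hemocyte genes averaged from -0.58 for srp to 0.25 for NimC1, 4 of them above 0, with 0 called. The single feature of mamo averaged -0.10 ± 0.53 (SD, n = 3) and was not called.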

How the data were processed

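The values were those the authors deposited, log10 ratios of the 2 channels, made with Agilent Feature Extraction 7.1 per the submitters' processing notes. How background and dye effects were treated is not given in the sources used here. Each value was multiplied by 3.3219 and its sign reversed, which gave a log2 ratio with the mutant on top. Features with 1 gene symbol were averaged per gene, and 636 unannotated features at the grid edge were left out, which gave 15415 features. The ratio against 0 was tested for every feature by limma's moderated test (version 3.58.1, R 4.3.3, 2-sided, Benjamini-Hochberg over all features). The procedure had been tested on simulated data with independent noise in each feature. Those data held no error of the shared control and no dye bias, so they say nothing of false calls from either. The number of arrays limits the precision. The members, lists and tests were chosen with earlier results of these data known.

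Genes were named by a rule: the 12 highest means, the 5 smallest ranges, 3 genes on each side of each threshold, features differing by over 1, and adjacent genes. Other genes, among them those with a synonym or an overlapping gene, were named after their values were seen. Planned comparisons of protein and promoter sequence were not run. The marker lists covered eggshell, yolk, testis, fat body, muscle, midgut, hemocyte with basement membrane and germ line. Alternatives changed the array scaling, the use of features, the prior, the weights and the thresholds, left out each array, or removed trends over the grid.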

Additional observations from a re-analysis of the deposited data

How the results depend on the processing

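The number of genes meeting the thresholds was 126 with a mean of at least 0.5, 37 with a mean of at least 0.7, and from 60 to 113 with 1 array left out. It was between 50 and 69 under the other alternatives. With the feature of smallest SD 7 of the 63 were lost and 10 genes joined, and CG8568 turned to -0.12. The count of features called by limma, 2135, was 5804 with array weights, 3418 with the feature of smallest SD, 0 at an adjusted p under 0.01, and 0 without any 1 array (from 0 to 0). The count among the 63, 58, was 0 at an adjusted p under 0.01 and 0 without any 1 array, and between 50 and 63 under the other alternatives. The median of the 63 moved by less than its SD between arrays under every alternative tried. Removal of grid trends, added after seeing the data, kept 57 of the 63. No paired analysis was possible because the 3 arrays form 1 group against a common control.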

Other observations

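Beside the 63 genes, 22 CG-numbered genes averaged 0.6 or more with a range of 0.8 or more, and 7 of these were not above 0 on every array. The 5 with the highest means, chosen after their values were seen, rest on different arrays. CG13032 read 3.28 and 3.03 on arrays 1 and 3 and 0.07 on array 2. CG4301 read 2.48 and 1.90 on arrays 1 and 2 and exactly 0 on array 3, a value that can mark an unmeasured ratio. CG31551 read 2.71, 0.93 and 0.68, highest on array 1. CG14102 read 2.06 and 1.68 on arrays 1 and 3 and 0.45 on array 2, and CG14160 read 1.70, 1.18 and 0.50. Of the 22, 1 was called by limma.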
